A study of Saccharomyces cerevisiae with 12 samples.

Results

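The genes described here are 10 genes of the mating pheromone pathway of budding yeast, Saccharomyces cerevisiae, chosen by name from the 5935 genes of the expression table. By role they are GPA1, STE4, FUS3 and STE12 of the signalling chain, SST2 and FAR1, which damp the signal or arrest the cell cycle, and KAR4, AGA1, FUS1 and FIG1 of the mating response. All 10 passed the filter on low values. RNA was sequenced in 12 libraries, 3 each from a wild type and from strains lacking SWP82, SNF2 or SNF5, which encode subunits of SWI/SNF, the ATP-driven nucleosome remodeller whose ATPase is Snf2. All 4 strains are of the BY4741 background and mating type a (mata), and all carry his3delta_1, leu2delta_0, met15delta_0 and ura3delta_0. Each deletion was made with kanMX4. By the labels, a 2FLAG tag linked to LEU2 sits on Snf2 in the wild type and on Snf6 in the 3 deletion strains, so that tag position and deletion cannot be told apart in any comparison against the wild type. Growth was at 30 °C and harvest in log phase, at an OD600 of about 0.75 to 1.0, as independent biological replicates. The labels name no pheromone treatment, so that these are levels in growing cells of a single mating type.

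Haploid yeast of mating type a signal through a receptor, Ste2, that binds the pheromone of alpha cells. The bound receptor frees the beta and gamma subunits, Ste4 and Ste18, from the alpha subunit Gpa1, and a kinase cascade on the scaffold Ste5 then activates the MAP kinases Fus3 and Kss1. Fus3 releases the transcription factor Ste12 from its inhibitors Dig1 and Dig2, and Ste12 binds pheromone response elements before its target genes, including several of the pathway's own genes. Growing cells keep a basal level of this signal.

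Depth was 9012746 to 12875057 gene-assigned reads over the 12 libraries. Values are the authors' normalised signal, CPM (counts scaled to library size) divided by a normalisation factor per library, called scaled CPM here, and given as mean ± SD with n = 3 libraries unless single libraries are listed. Each deleted gene was nearly or wholly without reads in its own strain: SNF5 had 2 reads in all in the snf5 deletion, SNF2 had 22 in the snf2 deletion and SWP82 had 0 in the swp82 deletion, where a count of 0 allows up to 3 reads over the group. SNF2, tagged in the wild type alone, stood at 97.6 ± 5.21 there, 133 ± 8.85 in the swp82 deletion and 153 ± 10.8 in the snf5 deletion. The part of this difference in the comparisons against the wild type was not tested. LEU2 went against the labels, with 0 reads in the snf2 and swp82 deletions, 1908 in wild-type libraries and 2407 in those without SNF5. Within the swp82 deletion, replicate 2 was the highest library for all 10 pheromone genes, while it was the highest of the 3 for 30.8% of all genes tested. Calls were made at an adjusted p (two-sided) under 0.05 by limma, fitted to log2(value + 1) over 5820 genes, with Benjamini-Hochberg adjustment over all of them. Log2 fold changes are on that scale, which understates changes of low genes, and are given ± SE. The replicates came from independent cultures per the labels.

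The promoters were searched for exact copies of a sequence that Ste12 binds, a search that cannot find inexact copies. The letters TGAAACA were searched on both strands from 250 bases before to 50 bases after the start codon in RefSeq's R64 assembly; no other motif was searched. An exact match stood before 5 of the 10 genes, FUS3, SST2, KAR4, AGA1 and FUS1, against 7.32% of all 5685 promoters searched. KAR4 and FUS1 held 2 matches each, and 0.352% of all promoters held 2 or more. GPA1, STE4, STE12, FAR1 and FIG1 held none in this window, which says only that these exact letters are not there. The 5 matching promoters are shown with the element in capitals, in the orientation of the gene, together with that of FAR1 as a gene without a match whose level fell by about as much as that of SST2 in the snf2 deletion. They lie at chrIII:71553-71852 (FUS1, plus strand), chrIII:27679-27978 (KAR4, plus strand), chrXIV:703449-703748 (AGA1, plus strand), chrII:192201-192500 (FUS3, plus strand), chrXII:1041317-1041616 (SST2, minus strand) and chrX:126279-126578 (FAR1, minus strand).
FUS1: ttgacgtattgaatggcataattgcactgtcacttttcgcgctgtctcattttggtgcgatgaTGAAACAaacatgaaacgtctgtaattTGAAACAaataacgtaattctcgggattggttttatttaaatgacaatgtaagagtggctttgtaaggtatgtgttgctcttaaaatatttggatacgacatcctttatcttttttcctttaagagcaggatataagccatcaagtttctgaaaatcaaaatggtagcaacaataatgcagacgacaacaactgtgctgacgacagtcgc
KAR4: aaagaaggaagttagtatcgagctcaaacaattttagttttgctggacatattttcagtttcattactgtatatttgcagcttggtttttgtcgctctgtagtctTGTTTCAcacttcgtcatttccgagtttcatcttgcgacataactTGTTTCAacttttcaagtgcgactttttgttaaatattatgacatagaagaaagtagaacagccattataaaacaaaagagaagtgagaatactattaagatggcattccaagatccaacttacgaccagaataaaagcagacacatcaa
AGA1: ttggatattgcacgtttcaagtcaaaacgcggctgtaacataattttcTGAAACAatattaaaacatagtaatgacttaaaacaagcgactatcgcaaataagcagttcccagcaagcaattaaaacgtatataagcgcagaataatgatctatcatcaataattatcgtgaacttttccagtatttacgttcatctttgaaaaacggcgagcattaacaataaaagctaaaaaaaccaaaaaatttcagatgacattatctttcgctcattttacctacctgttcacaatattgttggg
FUS3: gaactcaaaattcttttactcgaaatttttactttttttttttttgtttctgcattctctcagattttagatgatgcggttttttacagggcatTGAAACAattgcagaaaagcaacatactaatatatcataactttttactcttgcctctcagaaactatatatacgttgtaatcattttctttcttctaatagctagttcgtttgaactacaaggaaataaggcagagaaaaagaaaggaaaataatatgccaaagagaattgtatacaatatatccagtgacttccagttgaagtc
SST2: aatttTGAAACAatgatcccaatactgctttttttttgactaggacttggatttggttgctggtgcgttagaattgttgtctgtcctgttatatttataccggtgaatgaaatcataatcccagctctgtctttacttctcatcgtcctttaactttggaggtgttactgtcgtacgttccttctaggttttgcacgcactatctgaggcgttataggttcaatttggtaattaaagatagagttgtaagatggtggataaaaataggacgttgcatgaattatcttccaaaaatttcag
FAR1: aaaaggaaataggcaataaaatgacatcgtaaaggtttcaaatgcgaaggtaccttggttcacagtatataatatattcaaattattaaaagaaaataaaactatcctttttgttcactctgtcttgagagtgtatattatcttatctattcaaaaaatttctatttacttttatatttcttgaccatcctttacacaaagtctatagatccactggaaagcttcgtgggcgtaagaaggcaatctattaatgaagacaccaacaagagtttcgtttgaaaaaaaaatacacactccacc

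The exact matches in FUS1 began 187 and 160 bases before the start codon, on the coding strand. In KAR4 both copies read on the opposite strand, as TGTTTCA, and began 145 and 100 bases before it. The single copies began 202 bases before AGA1, 156 before FUS3 and 245 before SST2, the last close to the edge of the window. A match describes the letters and does not show that Ste12 was bound.

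**Figure D1:**
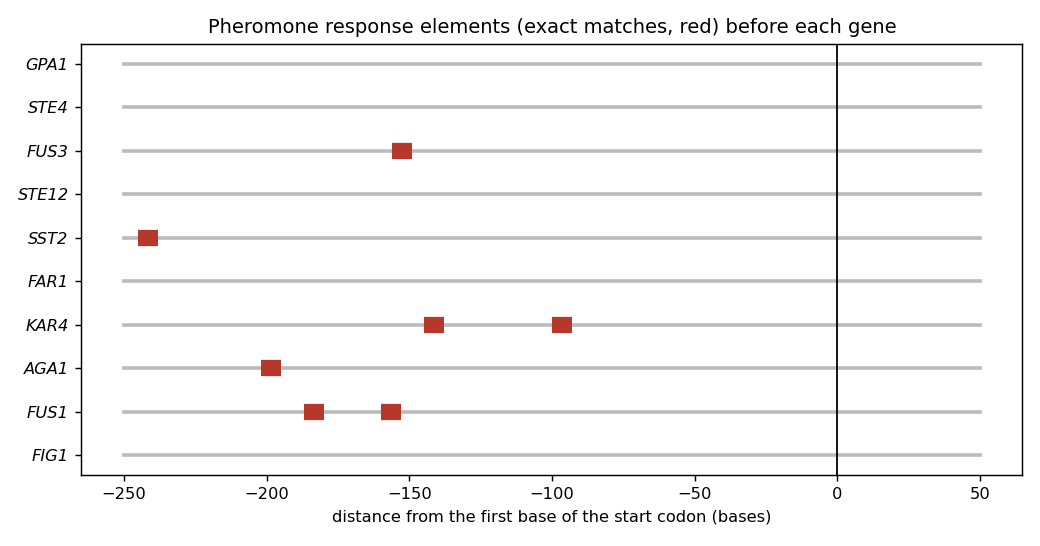
Position of exact pheromone response elements on either strand (red blocks) from 250 bases before to 50 bases after the start codon of each of the 10 genes; the x axis is the distance in bases from the first base of the start codon. FUS1 and KAR4 hold 2 exact matches each, FUS3, SST2 and AGA1 hold 1 each, and the other 5 genes hold none in this window.

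Levels per length, in scaled CPM per kilobase of the annotated gene, ranged widely among the 10 genes in the wild type. AGA1, whose product anchors the adhesion subunit Aga2 at the cell surface, was highest at 226, followed by FUS3 at 180.3, STE4 at 156 and GPA1 at 144. SST2 stood at 130.2, STE12 at 119.8, FAR1 at 98.6, KAR4 at 75.4 and FUS1 at 57.4. FIG1, a membrane protein gene of the mating response, stood far below them at 4.65, from only 32 to 63 reads per wild-type library. None of the 10 genes overlaps another in the annotation.

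**Figure D2:**
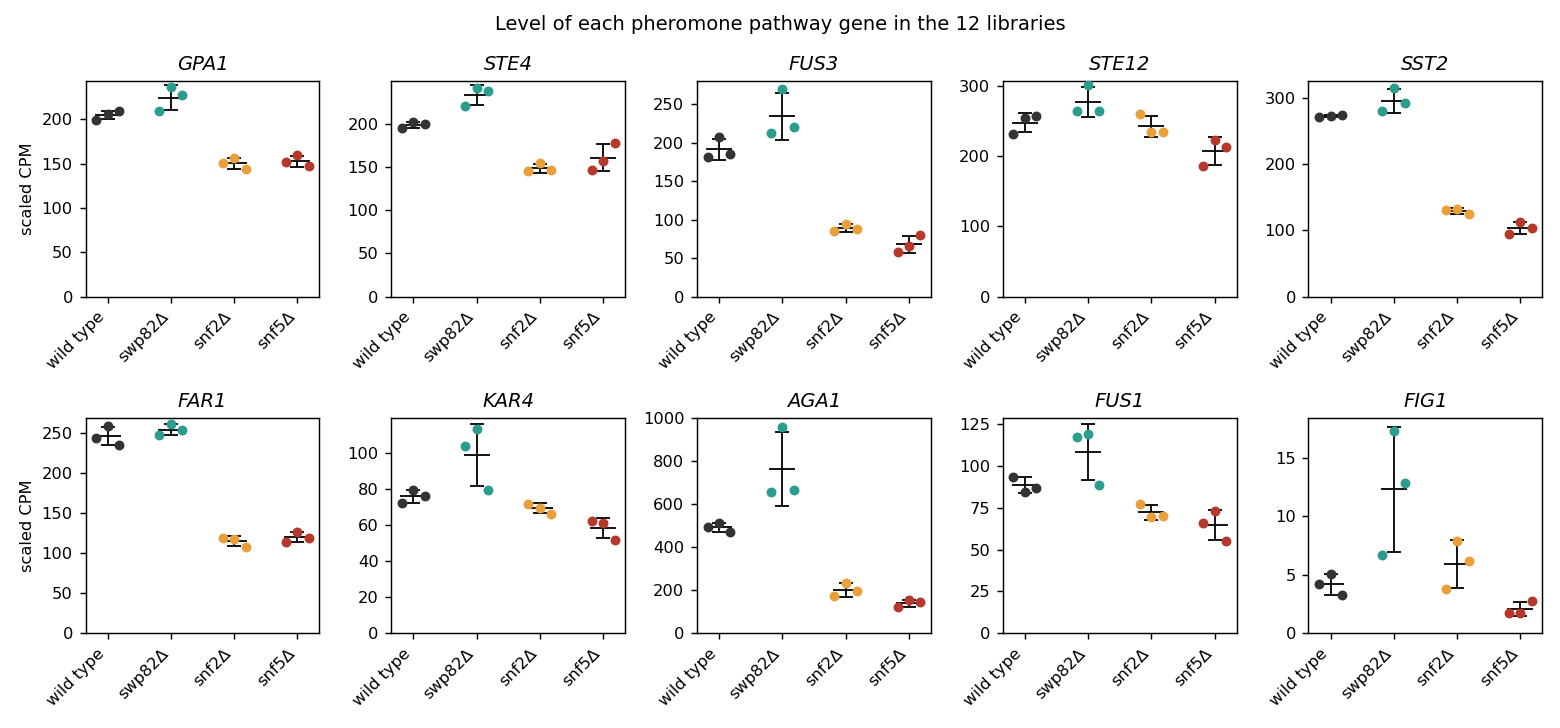
Level of each gene in scaled CPM (y axes from 0) in the 12 libraries; points are single libraries, in the order of replicates 1 to 3, and bars are the mean ± SD of 3 libraries. The swp82 deletion has the highest mean for all 10 genes, and the snf5 deletion the lowest for 7 of them.

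Of the 10 genes, 9 fell in the snf5 deletion, and the largest falls were in the surface anchor AGA1, the kinase gene FUS3 and the signal damper SST2, which stood at 28.3%, 35.5% and 37.9% of their wild-type means. These were 9 calls lower and 0 higher, where 14.5% of all genes tested were called lower and 14.8% higher. The replicates of the 2 strains did not overlap for any of the 10 genes, all lower, against 20.2% of all genes lower without overlap. The median log2 fold change of the 10 genes was -0.60, and that of all genes tested was -0.01. In the snf2 deletion 6 of the 10 were called lower and 0 higher, against 14.1% lower and 13.6% higher among all genes, with a median of -0.43 against a median of -0.0040 for all genes. There 8 of the 10 were lower without overlap, against 25.9% of all genes. The swp82 deletion went the other way, with 10 of 10 fold changes above 0 (median 0.25, against 0.0023 for all genes; FAR1 turned to -0.03 with total-count scaling) but only 1 gene called higher and 0 lower, against 1.41% and 2.08% of all genes. Replicates did not overlap for 8 of the 10, all higher, against 15.0% of all genes. Without swp82 deletion replicate 2, the 10 fold changes were still above 0 with a median of 0.19, and 8 of the 10 did not overlap, against 17.1% of all genes. The 3 comparisons share their wild-type libraries, so that they are not independent of each other. In bulk RNA, fewer cells of a type and less RNA per cell cannot be told apart. Scaling moved the balance of calls over all genes. Total-count scaling gave 1367 higher and 549 lower calls in the snf5 deletion (862 and 842 with the authors' scaling), 1837 and 468 in the snf2 deletion (792 and 820) and 49 and 268 in the swp82 deletion (82 and 121). Upper-quartile scaling gave 997 and 690 in the snf2 deletion.

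**Figure D3:**
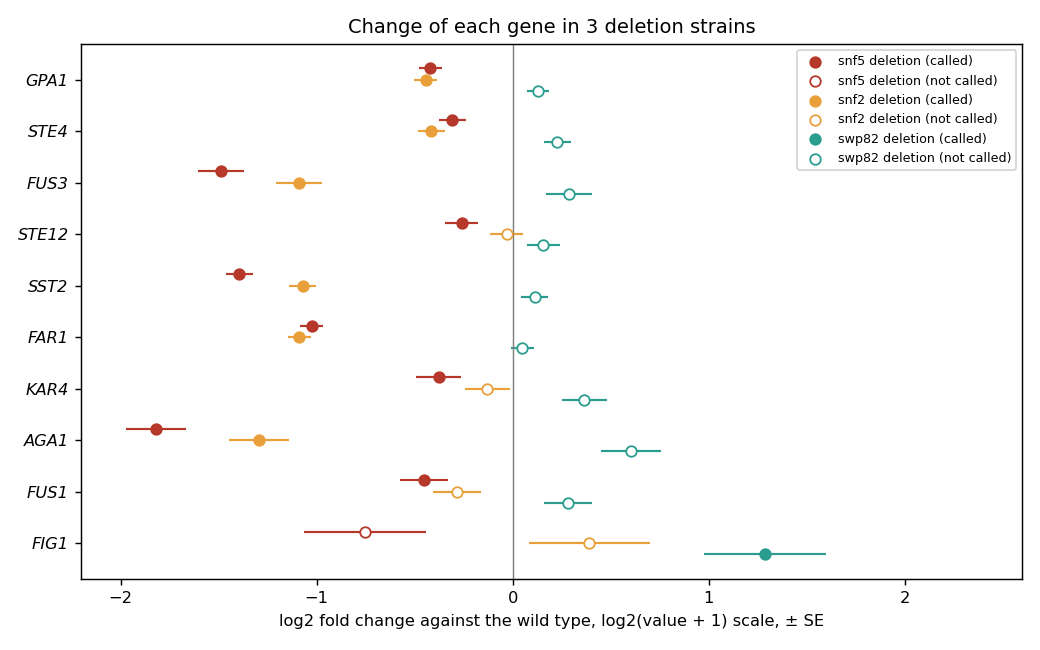
Log2 fold change (x axis, log2(value + 1) scale) of each gene against the wild type in the snf5 deletion (red), the snf2 deletion (orange) and the swp82 deletion (green); bars are ± SE, filled points were called and open points were not. All snf5 deletion points lie left of 0 and all swp82 deletion points right of it.

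GPA1 and STE4 fell modestly in the strains lacking Snf5 or Snf2, while STE18, the gene of the gamma subunit and not one of the 10, rose without Snf5 (0.33 ± 0.10, limma adjusted p = 0.0217) and stood at 0.28 ± 0.10 in the snf2 deletion (adjusted p = 0.0506). GPA1, the alpha subunit that holds the signal off (YHR005C, chromosome VIII, 113499 to 114917), stood at 199.6, 205 and 209 scaled CPM in wild-type replicates 1 to 3. It stood at 152, 159.6 and 147 in the snf5 deletion and at 151, 156 and 144 in the snf2 deletion. Every library of either deletion lay below every wild-type library. The log2 fold changes were -0.42 ± 0.06 (limma adjusted p = 0.000301) and -0.44 ± 0.06 (adjusted p = 0.000224). STE4, the beta subunit that carries the signal (YOR212W, chromosome XV, 742910 to 744181), stood at 195, 201 and 199 in the wild type. In the snf5 deletion it stood at 147, 157 and 178, and in the snf2 deletion at 145, 154 and 146. Again the wild-type libraries lay above all 6 others, with replicate 3 of the snf5 deletion nearest to them. By limma STE4 fell by 0.31 ± 0.07 (adjusted p = 0.00635) without Snf5 and by 0.42 ± 0.07 (adjusted p = 0.00111) without Snf2. These 4 calls held without any single library of the 12 and under the other settings run.

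FUS3 (YBL016W, chromosome II, 192451 to 193512), the MAP kinase gene of the pathway, fell much further. It stood at 181, 208 and 186 in the wild type, at 85.2, 94.8 and 88.2 in the snf2 deletion and at 58.1, 66.0 and 79.8 in the snf5 deletion. The 3 strains did not overlap in any library. By limma the log2 fold change was -1.49 ± 0.12 (adjusted p = 4.28e-06) without Snf5 and -1.09 ± 0.12 (adjusted p = 5.40e-05) without Snf2. STE12 (YHR084W, chromosome VIII, 274174 to 276240), the transcription factor at the end of the cascade, hardly moved by comparison. It stood at 232, 255 and 256 in the wild type, at 259, 234 and 234 in the snf2 deletion and at 185, 223 and 212 in the snf5 deletion. Replicate 1 of the snf2 deletion lay just above the wild-type range and its other libraries within it, while the snf5 deletion lay below the wild type in every library. STE12 was not called in the snf2 deletion (-0.03 ± 0.08, limma adjusted p = 0.806), and its sign turned with total-count (0.11) and upper-quartile scaling (0.02). In the snf5 deletion it was called lower (-0.26 ± 0.08, adjusted p = 0.0360), but not without wild-type replicate 2 (adjusted p = 0.112), wild-type replicate 3 (0.116) or snf5 deletion replicate 1 (0.111), with total-count scaling (0.123) or with only these 2 strains in the fit (0.0785).

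SST2 and FAR1, which damp the signal and arrest the cell cycle, fell to 37.9% and 48.9% of the wild-type mean in the snf5 deletion and to 47.4% and 46.8% in the snf2 deletion. SST2 (YLR452C, chromosome XII, 1039270 to 1041366) encodes the regulator that speeds the return of Gpa1 to its inactive state. It was nearly constant in the wild type at 271, 273 and 275, and stood at 132, 132 and 125 in the snf2 deletion and 94.5, 113 and 103 in the snf5 deletion. The 3 strains were separate, in that order from high to low. By limma SST2 fell by 1.39 ± 0.07 (adjusted p = 1.00e-07) without Snf5 and by 1.07 ± 0.07 (adjusted p = 7.32e-07) without Snf2. FAR1 (YJL157C, chromosome X, 123836 to 126328) encodes an inhibitor of the cyclin-dependent kinase and an adaptor for polarised growth towards a mate. Its values were 244, 258 and 235 in the wild type, 119, 118 and 108 in the snf2 deletion and 114, 127 and 119 in the snf5 deletion. Both deletions lay far below the wild type and overlapped each other. FAR1 fell by 1.03 ± 0.06 (limma adjusted p = 3.72e-07) and 1.09 ± 0.06 (adjusted p = 2.56e-07) in the snf5 and snf2 deletions.

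Of the mating response genes, AGA1 (YNR044W, chromosome XIV, 703699 to 705876) fell most. It stood at 495, 512 and 471 in the wild type, at 172, 236 and 198 in the snf2 deletion and at 122, 153 and 144 in the snf5 deletion. None of the 3 strains overlapped another. By limma the change was -1.82 ± 0.15 (adjusted p = 6.82e-06) without Snf5 and -1.29 ± 0.15 (adjusted p = 0.000109) without Snf2. The calls of AGA1, FUS3, SST2 and FAR1 in both strains held without any single library and under the other settings run.

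KAR4 and FUS1, the genes with 2 exact matches to the response element each, moved less. KAR4 (YCL055W, chromosome III, 27929 to 28936) encodes a transcription factor needed with Ste12 for genes of nuclear fusion. It stood at 72.6, 79.3 and 76.1 in the wild type, 72.1, 69.5 and 66.5 in the snf2 deletion and 62.3, 61.1 and 51.9 in the snf5 deletion. The strains were separate but close. By limma KAR4 was called without Snf5 (-0.38 ± 0.12, adjusted p = 0.0300) and not in the snf2 deletion (-0.13 ± 0.12, adjusted p = 0.437; 0.01 with total-count scaling). The call was lost without wild-type replicates 1 (adjusted p = 0.0517), 2 (0.0978) or 3 (0.0775) or snf5 deletion replicates 2 (0.0514) or 3 (0.0797), with total-count scaling (0.0895) and with upper-quartile scaling (0.0537).

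FUS1 (YCL027W, chromosome III, 71803 to 73341) encodes a membrane protein needed for the fusion of mating cells. It stood at 93.6, 84.4 and 86.8 in the wild type, 77.3, 69.4 and 70.3 in the snf2 deletion and 66.1, 73.0 and 55.05 in the snf5 deletion. All 6 deletion libraries lay below the wild type. It was called in the snf5 deletion (-0.45 ± 0.12, limma adjusted p = 0.0177), though not without wild-type replicate 1 (0.0633) or with total-count scaling (0.0573). In the snf2 deletion it was not called (-0.28 ± 0.12, adjusted p = 0.110). It was called there without swp82 deletion replicate 3 (0.0483) and with only these 2 strains in the fit (0.00708).

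FIG1 (YBR040W, chromosome II, 316968 to 317864), which in mating cells acts in calcium entry and fusion, rested on few reads. It stood at 4.17, 5.05 and 3.30 in the wild type, from 49, 63 and 32 reads. In the snf5 deletion it stood at 1.70, 1.74 and 2.78, from 18, 19 and 30 reads, and in the snf2 deletion at 3.78, 7.88 and 6.14. The snf5 deletion lay below the wild type in each library, while the snf2 deletion overlapped it. FIG1 was not called in the snf5 deletion (-0.75 ± 0.31, limma adjusted p = 0.0924) or the snf2 deletion (0.39 ± 0.31, adjusted p = 0.384), where it was the 1 gene of the 10 with a fold change above 0. DESeq2 on the recovered reads (adjusted p = 0.0397), a fit of these 2 strains alone (0.0372) and a fit without swp82 deletion replicate 1 (0.0363) did call FIG1 lower in the snf5 deletion.

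In the swp82 deletion FIG1 and AGA1 had the largest fold changes against the wild type. AGA1 stood at 656, 959 and 667 in replicates 1 to 3, all above the wild type, with replicate 2 far above the other 2 libraries. FIG1 stood at 6.71, 17.3 and 12.8, also above every wild-type library and again highest in replicate 2. FIG1 was called higher (1.29 ± 0.31, limma adjusted p = 0.0480), the 1 call among the 10 genes, on means of 12.3 ± 5.31 against 4.17 ± 0.875 scaled CPM. This call was lost without any wild-type replicate (adjusted p of 0.153, 0.0944 and 0.141 without replicates 1 to 3), without swp82 deletion replicates 2 (0.178) or 3 (0.140), without any snf2 deletion replicate (0.0505, 0.0595 and 0.0773) or without snf5 deletion replicate 2 (0.0714). It was also lost with a pseudocount of 0.1 (0.0532) and with only these 2 strains in the fit (0.0789).

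AGA1 was higher by 0.60 ± 0.15 with a limma adjusted p of 0.0565, just outside the threshold. It was called without swp82 deletion replicate 1 (0.0317), without snf5 deletion replicates 1 (0.0364) or 3 (0.0413), with upper-quartile scaling (0.0458) and by DESeq2 (0.00486). KAR4 stood at 104, 113 and 79.8 and FUS1 at 117, 119 and 88.7 in the swp82 deletion. In both genes replicates 1 and 2 lay well above the wild type, and replicate 3 lay just above it for KAR4 and within its range for FUS1. Their fold changes were 0.36 ± 0.12 (limma adjusted p = 0.0967) and 0.28 ± 0.12 (adjusted p = 0.189), and KAR4 was called without swp82 deletion replicate 3 (0.0182) and by DESeq2 (0.0378).

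Of the signalling genes, FUS3 stood at 213, 269.8 and 221 in the swp82 deletion, STE4 at 219.9, 241 and 238, GPA1 at 209, 237 and 227, and STE12 at 264, 301 and 264. In all 4 the swp82 libraries lay above the wild-type ones, except that GPA1 replicate 1 was level with the highest wild-type library to 3 digits. None was called: FUS3 had a fold change of 0.29 ± 0.12 (limma adjusted p = 0.168), STE4 of 0.23 ± 0.07 (0.0892), GPA1 of 0.13 ± 0.06 (0.199) and STE12 of 0.16 ± 0.08 (0.263). STE4 was called without swp82 deletion replicate 1 (0.0471), without snf5 deletion replicates 1 (0.0454) or 3 (0.0287) and by DESeq2 (0.0326). SST2 stood at 279.9, 315 and 292 and FAR1 at 248, 261 and 253, SST2 close above the wild type and FAR1 overlapping it (0.11 ± 0.07, adjusted p = 0.315, and 0.05 ± 0.06, adjusted p = 0.616).

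Same-numbered libraries of the swp82 deletion and the wild type deviated together from their strain means, with correlations of 0.255 to 0.599. Different-numbered libraries gave -0.45 to 0.258, so that the ranges overlap slightly. Centring on the strain means pushes different-numbered correlations below 0 where same-numbered ones lie above it, so that the ranges are not independent. In same-numbered pairs, all 10 genes were higher in the swp82 deletion in 3 of 3 pairs, as were 30.5% of all genes. With the replicate block limma called 4 of the 10 genes higher: FIG1 (adjusted p = 0.0121), AGA1 (0.00453), KAR4 (0.0301) and STE4 (0.0336). The block also raised the count over all genes from 203 to 783, and the higher calls among them from 82 to 394, so more calls came among all genes too. Without swp82 deletion replicate 2, the library highest for all 10 genes, 0 of the 10 were called by the unblocked fit; AGA1 was then at 0.43 and FIG1 at 1.01.

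Compared directly, the snf5 and snf2 deletions differed at some of the genes. FUS3, SST2, AGA1 and FIG1 were lower in the snf5 deletion, 4 of the 10 genes, with 0 higher, where 6.68% of all genes were called lower and 5.79% higher. For 6 of the 10 the snf5 libraries all lay below the snf2 libraries, against 16.0% of all genes. With total-count scaling 246 of all genes were called higher and 544 lower, against 337 and 389 with the authors' scaling. The differences were -0.40 ± 0.12 for FUS3 (limma adjusted p = 0.0487), -0.32 ± 0.07 for SST2 (0.0119), -0.53 ± 0.15 for AGA1 (0.0464) and -1.15 ± 0.31 for FIG1 (0.0367). GPA1 (0.02 ± 0.06, adjusted p = 0.859; -0.03 with total-count scaling), STE4 (0.11 ± 0.07, 0.359) and FAR1 (0.06 ± 0.06, 0.563) overlapped between these strains. STE12 (-0.23 ± 0.08, 0.0972), KAR4 (-0.25 ± 0.12, 0.193) and FUS1 (-0.17 ± 0.12, 0.436) had fold changes below 0 and were not called. With total-count scaling STE12 was called lower (-0.28, limma adjusted p = 0.0368).

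Those 4 calls rested on the shared spread of all 12 libraries. With only the 6 libraries of the 2 strains in the fit, 0 of the 10 genes were called, and the all-gene count fell from 726 to 225. SST2 kept its call in 10 of 12 fits that left out 1 library, and lost it without snf2 deletion replicates 1 (0.0521) or 2 (0.0502). FUS3 lost its call without any wild-type replicate (0.0641, 0.0628 and 0.0701), swp82 deletion replicate 3 (0.0586), any snf2 deletion replicate (0.102, 0.152 and 0.114) or snf5 deletion replicates 1 or 2 (up to 0.121), and by edgeR (0.0557). AGA1 lost its call without any wild-type replicate (0.0652, 0.0685 and 0.0668), any snf2 deletion replicate (0.0524, 0.161 and 0.113) or any snf5 deletion replicate (0.0944, 0.0634 and 0.0735). FIG1 was not called when wild-type replicates 1 (0.0516) or 2 (0.0519) were left out, nor without snf2 deletion replicates 2 (0.129) or 3 (0.110), or snf5 deletion replicates 1 (0.0637) or 2 (0.103). The sign of all 4 differences was the same in each of these fits.

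**Figure D4:**
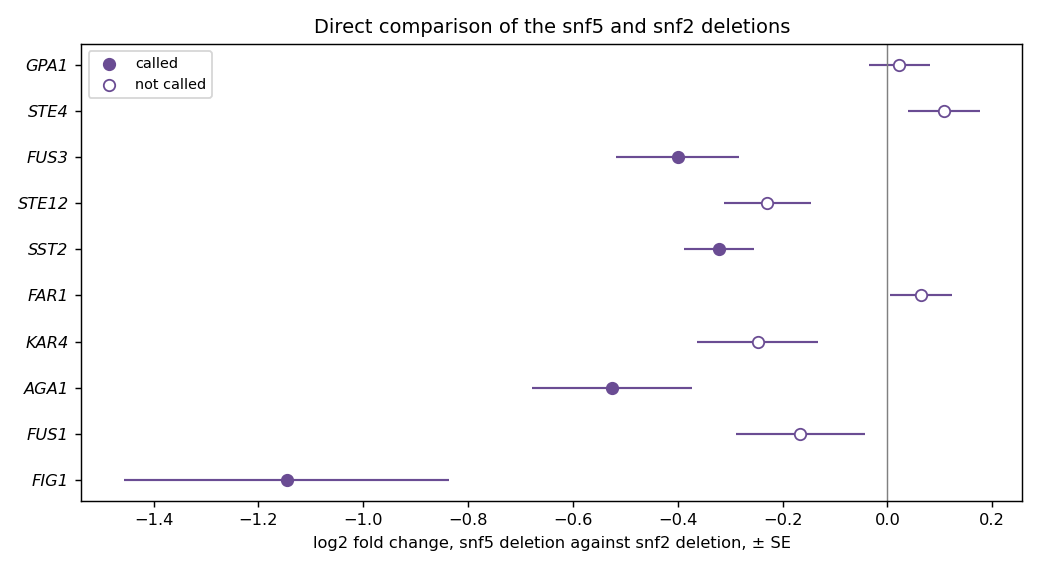
Log2 fold change (x axis, log2(value + 1) scale) of each gene in the snf5 deletion against the snf2 deletion, with bars of ± SE; filled points were called by limma and open points were not. FUS3, SST2, AGA1 and FIG1 lie left of 0 and were called, and GPA1, STE4 and FAR1 lie near or right of it.

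Set against the swp82 deletion, nearly all of the 10 genes were lower in both other deletions. The snf5 deletion was called lower at 10 of 10 genes, where 21.5% of all genes were called lower and 20.4% higher, from -0.42 ± 0.08 for STE12 to -2.42 ± 0.15 for AGA1. The libraries of these 2 strains did not overlap for any of the 10 genes, against 21.7% of all genes lower without overlap, and all 10 calls held without any single library. The snf2 deletion was called lower at 9 of 10, against 21.8% of all genes called lower and 21.7% higher, from -0.49 ± 0.12 for KAR4 to -1.90 ± 0.15 for AGA1; 9 of the 10 did not overlap, all but FIG1, against 28.6% of all genes lower without overlap. STE12 was not called (-0.19 ± 0.08, limma adjusted p = 0.0882; 0.03 with total-count scaling) except without snf5 deletion replicate 1 (0.0433). FIG1 was called there (-0.90 ± 0.31, adjusted p = 0.0376), but not without swp82 deletion replicates 2 (0.152) or 3 (0.107) or snf2 deletion replicates 1 (0.144) or 3 (0.0746), nor with only these 2 strains in the fit (0.0642). With total-count scaling FIG1 (0.0645) and KAR4 (0.0645) were not called. Over all genes, total-count scaling called 2282 higher and 599 lower in the snf5 against the swp82 deletion (1189 and 1249 with the authors' scaling). In the snf2 against the swp82 deletion it called 2937 and 577, and upper-quartile scaling 1611 and 1015 (1265 and 1268 with the authors' scaling). With total-count scaling the median log2 fold change of all genes was 0.215 in this comparison (0.0036 with the authors' scaling). It was 0.156 in that of the snf5 and swp82 deletions (-0.0062) and 0.134 in that of the snf2 deletion and the wild type (-0.0040).

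The order of the strains was nearly the same in every gene. In 6 of the 10 the means fell from the swp82 deletion through the wild type and the snf2 deletion to the snf5 deletion, and in GPA1, STE4 and FAR1 the last 2 changed places, with overlapping replicates and no call between them. In FIG1 the snf2 deletion stood above the wild type, with a limma adjusted p of 0.384 between them. The neighbours called different were the wild type and the next lower strain in GPA1, STE4, FUS3, SST2, FAR1 and AGA1, the snf2 and snf5 deletions in FUS3, SST2 and AGA1, and the swp82 and snf2 deletions in FIG1. In STE12, KAR4 and FUS1 no neighbours were called different, although replicates did not overlap between all neighbours in KAR4 and some in STE12 and FUS1. Without swp82 deletion replicate 2 the swp82 deletion still had the highest mean for all 10 genes.

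Other genes of the pathway were read from 4 lists with 60 genes, none of them among the 10. In the snf5 deletion 24 of the 60 were called lower and 7 higher (median -0.11), in the snf2 deletion 21 lower and 9 higher (median -0.02), and in the swp82 deletion 0 lower and 2 higher (median 0.07). The shares over all genes were 14.5% lower and 14.8% higher in the snf5 deletion, 14.1% and 13.6% in the snf2 deletion and 2.08% and 1.41% in the swp82 deletion, so that the higher calls of the snf5 and snf2 deletions were about as frequent as among all genes. Against the swp82 deletion, 28 of the 60 were lower and 8 higher in the snf5 deletion (median -0.17), and 27 lower and 11 higher in the snf2 deletion (median -0.09). Over all genes, 21.5% were lower and 20.4% higher in the first of these comparisons, and 21.8% and 21.7% in the second. In the second, the 11 higher calls among the 60 were close to the share over all genes. The counts of the single lists, all against the wild type, are to be read against the wild-type shares above. The receptor, G-protein and kinase list split: of 14 genes, 5 fell and 3 rose in the snf5 deletion, and 4 fell and 3 rose in the snf2 deletion. In the snf5 deletion STE5, the scaffold, fell by 0.31 ± 0.06 (limma adjusted p = 0.00218) and STE2, the receptor, by 0.48 ± 0.09 (adjusted p = 0.00234). In the snf2 deletion KSS1, the second MAP kinase gene, fell by 0.32 ± 0.07 (adjusted p = 0.00493), and STE7, the kinase that activates both, rose by 0.26 ± 0.06 (adjusted p = 0.00723).

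Regulators of the signal fell in 5 of 11 cases and rose in 1 in the snf5 deletion, and fell in 7 and rose in 2 in the snf2 deletion. BAR1, the secreted protease that destroys alpha pheromone, went from 446 ± 15.0 scaled CPM to 183 ± 20.2 in the snf5 deletion and 215 ± 14.2 in the snf2 deletion (-1.29 ± 0.09 and -1.06 ± 0.09). TEC1, the partner of Ste12 in filamentous growth, fell by 1.41 ± 0.11 and 1.02 ± 0.11. In the list of the pheromone and its processing, 6 of 10 fell and 1 rose in each of these strains. MFA1, a gene of the a-factor pheromone itself, fell from 514.7 ± 32.96 to 127 ± 23.5 in the snf5 deletion (-2.02 ± 0.18) and to 213 ± 37.4 in the snf2 deletion (-1.28 ± 0.18).

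Of 25 genes of adhesion, fusion and karyogamy, 8 fell and 2 rose in the snf5 deletion and 4 fell and 3 rose in the snf2 deletion, the latter close to the shares of 14.1% and 13.6% over all genes. AGA2, the binding subunit that Aga1 anchors, fell with AGA1, with log2 fold changes of -1.504 ± 0.106 and -1.466 ± 0.106. PRM4, a pheromone-induced gene, fell by 1.56 ± 0.11 and 1.12 ± 0.11, and PRM1, which acts in membrane fusion, by 1.29 ± 0.14 and 0.89 ± 0.14. PRM5 rose by 0.70 ± 0.12 in the snf2 deletion. PRM5 and ASG7 were the 2 genes of the 60 called in the swp82 deletion, both higher (0.55 ± 0.12, limma adjusted p = 0.0327, and 0.48 ± 0.11, adjusted p = 0.0392). Both calls were lost without any wild-type replicate, swp82 deletion replicates 2 or 3, any snf2 deletion replicate or snf5 deletion replicate 2, with adjusted p of up to 0.122 for PRM5 and 0.155 for ASG7.

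**Figure D5:**
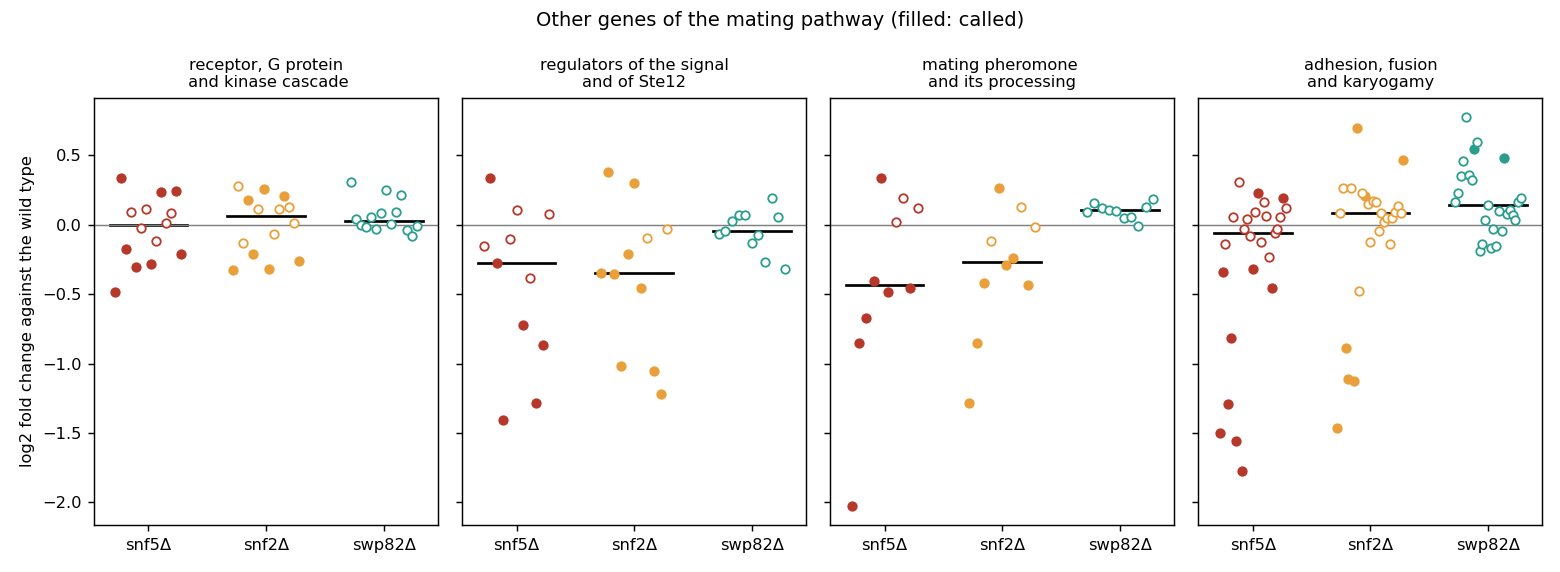
Log2 fold change against the wild type (y axis, log2(value + 1) scale) of each gene in 4 lists of other mating pathway genes, by deletion strain on the x axis; filled points were called, open points were not, and black lines are list medians. In the swp82 deletion 2 genes were called, and in the snf5 and snf2 deletions falls of more than 1 log2 unit lie in the lists of regulators, pheromone, and adhesion and fusion.

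Markers of mating type were read beside these results. The summed level of 7 MATa marker genes, which are all also in the lists above, was 3577 to 3903 scaled CPM in wild-type libraries, 3905 to 4809 in the swp82 deletion (up to 4035 without replicate 2), 2102 to 2262 in the snf2 deletion and 1905 to 1975 in the snf5 deletion. Of the 7, 6 fell in each of the snf5 and snf2 deletions. In the swp82 deletion 1 rose, ASG7, whose call was easily lost, as given above. Over all genes, 14.5% were called lower and 14.8% higher in the snf5 deletion, and 14.1% and 13.6% in the snf2 deletion. The share called higher in the swp82 deletion was 1.41%. These shares apply to the other marker lists too. The sum over 5 alpha-cell marker genes was 127 to 134 in the wild type and 141 to 156 in the swp82 deletion. It was 118 to 130.1 in the snf2 deletion and 109 to 117 in the snf5 deletion. In the wild type nearly all of it came from SAG1 (79.0 ± 3.57) and AFB1 (50.6 ± 0.478). The sum therefore does not measure the level of STE3 or of the alpha pheromone genes. Of these 5, 2 rose and 1 fell in the snf5 deletion, and 3 rose and 1 fell in the snf2 deletion. The rises include MF(ALPHA)1 in both strains and MF(ALPHA)2 in the snf2 deletion, each on few reads, as given below. AFB1 fell in both (-0.99 ± 0.09 and -0.54 ± 0.09), and SAG1, the alpha agglutinin gene, was not called (-0.09 ± 0.06 and -0.05 ± 0.06). No marker of either list was at 0 reads over a whole strain, and the alpha pheromone gene MF(ALPHA)1 was near 0, with 0.324 ± 0.0159 scaled CPM in wild-type libraries and 1.05 ± 0.356 in those without SNF5. MF(ALPHA)1 had 11 reads in the wild type, 30 in the snf2 deletion and 34 in the snf5 deletion. No wild-type or swp82 deletion library of it reached the filter value of 1, so that it passed only through the snf2 and snf5 deletions. Its limma calls (adjusted p = 0.0452 without Snf2, 0.0176 without Snf5) were lost in some fits without 1 library (up to 0.146 and 0.069). MF(ALPHA)2 had 15 reads in the wild type and 88 in the snf2 deletion, and no wild-type library reached 1. STE3, the receptor of alpha cells, rose from 1.56 ± 0.522 to 12.7 ± 0.323 in the snf5 deletion and 9.50 ± 0.545 in the snf2 deletion (2.44 ± 0.17 and 2.05 ± 0.17). Of 5 haploid-specific genes, STE5 and STE18 of the lists above with HO, RME1 and NEJ1, the sum was 420.4 to 439.7 in the wild type, 396 to 435 in the swp82 deletion, 179 to 183 in the snf2 deletion and 189.6 to 200.3 in the snf5 deletion. Most of the fall of this sum came from HO and RME1, so that it does not measure the level of STE5, STE18 or NEJ1. In that list 3 genes fell and 1, STE18, rose in the snf5 deletion, and 4 fell in the snf2 deletion. NEJ1 was not called in the snf5 deletion (-0.17 ± 0.07, limma adjusted p = 0.0841). RME1 went from 106 ± 3.22 to 48.6 ± 6.20 in the snf5 deletion and 30.2 ± 1.03 in the snf2 deletion. HO, the mating-type switching endonuclease, fell from 164 ± 11.4 to 6.71 ± 1.47 in the snf5 deletion and 8.50 ± 1.18 in the snf2 deletion. The part of these marker changes in the results above was not tested.

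For each of the 10 genes the other gene with the most similar course over the 12 libraries was found, by the root-mean-square difference of log2(value + 1) after centring each gene on its mean. KAR4 and FUS1 were each other's nearest gene among all 5820 tested, at 0.0939. SST2 was nearest to BAR1 at 0.0870, AGA1 to MFA1 at 0.233 and GPA1 to AXL1, a protease gene of a-factor processing, at 0.0602. Every one of the 10 nearest genes was closer than the gene's own spread about its mean. Each was picked as the closest of all genes tested, so that this lends no weight to any pair. That spread was 0.296 for KAR4, 0.310 for FUS1, 0.659 for SST2, 0.987 for AGA1 and 0.258 for GPA1. The other genes were nearest to genes outside the pathway lists: STE4 to PSE1 (0.0408), STE12 to VMS1 (0.0722), FAR1 to HMG1 (0.101), FUS3 to TAT1 (0.145) and FIG1 to YIL082W-A (0.471). These are descriptions over libraries that fall into 4 strains.

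The authors' deposited table of group means, a list filtered by its name on fold change and p-value, holds 506 of the 5935 genes. It lists 5 of the 10 genes, FUS3, FAR1, SST2, FIG1 and AGA1, and not GPA1, STE4, STE12, KAR4 or FUS1. Among the 5 genes not listed, the largest log2 fold change fitted here was -0.74 ± 0.12, for KAR4 in the snf5 against the swp82 deletion. Which comparisons the filter covered is not given in the sources used here.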

How the data were processed

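Poly(A) RNA was sequenced with a stranded kit in 12 libraries. The submitters' processing notes name sacCer3, edgeR 3.8.6, TopHat2 2.0.10 and Bowtie2 2.1.0. For the counter, its strand setting, annotation and filters, the sources used here give nothing. The authors deposited a normalised signal per gene, which the values show to be CPM divided by a library scaling factor: 100% of values gave whole reads within 0.05 of a read. From these values limma 3.58.1 (trend, no block) was fitted in R 4.3.3 to log2(value + 1) of all 12 libraries with strain as the term, for the 5820 of 5935 genes at 1 or more in at least 3 libraries, giving 6 comparisons. edgeR 4.0.16 and DESeq2 1.42.0 on the recovered reads, other scalings, pseudocounts, filters, sample sets and a replicate block were alternatives. The fits were tested on simulated data. Same-numbered libraries deviated together between the swp82 deletion and the wild type (correlations of 0.255 to 0.599). They also did between the swp82 and snf5 deletions (0.116 to 0.660), so that every correlation in both was over 0.1. Different-numbered libraries reached 0.258 and 0.549, above the lowest same-numbered value in each comparison. Because each gene was centred on its strain means, same-numbered and different-numbered correlations are not independent. Depth sets precision: 1 read was worth 0.0801 to 0.118 scaled CPM, and replicates differed beyond sampling noise. Named genes were the 10 members, up to 4 called genes with the smallest p per list and strain, or the 1 with the smallest p, the deleted genes, and each member's nearest gene; LEU2 was added after its values were seen. Not every gene that this rule names is printed. The members and lists were chosen with earlier results of these data known. Promoters and coordinates come from RefSeq's R64, of which sacCer3 is a copy, matched by systematic name for 5685 genes.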

Additional observations from a re-analysis of the deposited data

How the results depend on the processing

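Of the alternatives run on the 10 genes, 1220 values kept their direction and side of the threshold, 63 lost a call, 23 gained one and 8 changed sign. Sign changes were all in uncalled values. With total-count scaling they were FAR1 in the swp82 deletion (-0.0276), KAR4 (0.0105) and STE12 (0.11) in the snf2 deletion, STE12 in the snf2 against the swp82 deletion (0.0314) and GPA1 in the snf5 against the snf2 deletion (-0.0283). The last ranged from -0.0096, without snf5 deletion replicate 2, to 0.0499 when 1 library was left out (-0.0068 without snf2 deletion replicate 3), and STE12 in the snf2 deletion was 0.0166 with upper-quartile scaling. Between the swp82 deletion and the wild type, genes called moved from 203 (82 of them higher) to 511 by DESeq2 (279 higher) and 131 with 2 strains in the fit (46 higher). They moved to 317 with total-count scaling (49 higher) and 783 with the replicate block (394 higher). Upper-quartile scaling gave 255 (113 higher), a pseudocount of 0.1 gave 207 (82 higher) and a filter at 10 gave 190 (82 higher). Of the 10 genes, 4 were called higher by DESeq2, 2 with upper-quartile scaling and 4 with the replicate block. With 2 strains in the fit, with a pseudocount of 0.1 or with a filter at 10, which removed FIG1, 0 of the 10 were called. With 2 strains in the fit 2475 genes were called in the snf2 deletion, 1314 in the snf5 against the swp82 deletion, and 225, with 0 of the 10, in the snf5 against the snf2 deletion. The cause of these changes was not tested. Leaving out 1 library gave 1220 to 1929 genes called in the snf5 deletion, 1155 to 1908 in the snf2 deletion, 63 to 625 in the swp82 deletion, 322 to 908 in the snf5 against the snf2 deletion, 1746 to 3033 in the snf5 against the swp82 deletion and 1787 to 2952 in the snf2 against the swp82 deletion. Of the 10 genes it gave, in the same order, 7 to 10, 6 to 7, 0 to 3, 0 to 4, 10 to 10 and 8 to 10. The replicate block also called FUS1 in the snf2 deletion (adjusted p = 0.0396) and FIG1 in the snf5 deletion (0.0335), where the numbers do not pair every library, and in the comparisons not named here it changed no other call of the 10 genes.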
